A study of Homo sapiens with 29 samples.

Results

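Glucose enters a cell through membrane carriers and is broken down to pyruvate and lactate by the enzymes of glycolysis, and 10 genes of that route are described here across the induction of heart muscle from human embryonic stem cells. They encode the carriers SLC2A1 and SLC2A3 and the enzymes HK2, PFKP, ALDOA, ALDOC, PGK1, ENO1, PKM and LDHA. The members were chosen by name, as the probes whose symbol in the array's annotation was that of a member, which gave 20 of 47323 probes and 10 of 20046 genes. HuES6, an established human embryonic stem cell line, was kept in a chemically defined medium, replated on Matrigel and differentiated without serum or albumin. Insulin was present on day 0 and withdrawn afterwards, and the WNT inhibitor IWP-2 was given on days 2 and 3 by the protocol that the labels state for every sample. Full induction, the arm FBW, combined FGF2 and BMP4 with an activator of WNT signalling, written CHIR00921 in the labels, all on day 0. The arm FB lacked the WNT activator, BW lacked FGF2 and FW lacked BMP4, as each sample's own description says. Total RNA was hybridised to Illumina bead arrays, with 1 array of undifferentiated cells on day 0 and 1 array for each of the 4 arms on days 1, 2, 3, 4, 5, 6 and 8, which makes 29. The FBW arrays of days 3 and 6 were described as duplicates of samples in another series. All cells came from a single line, and no arm had a repeat on any day.

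Glycolysis turns a glucose molecule into pyruvate with a small gain of ATP. Pluripotent stem cells are known to rely on it strongly, passing much of the pyruvate on to lactate, whereas maturing heart muscle comes to burn fatty acids and lactate in its mitochondria. The carriers bring glucose in, hexokinase traps it by phosphorylation, phosphofructokinase commits it to the pathway, and aldolases split the sugar bisphosphate. Phosphoglycerate kinase, enolase and pyruvate kinase lead to ATP and pyruvate, and lactate dehydrogenase A reduces pyruvate to lactate. Many of these genes are classical targets of the hypoxia-inducible factors, which recognise a short core written ACGTG or GCGTG, and of MYC, which recognises the palindrome CACGTG.

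The promoters of 5 members are shown because LDHA, ALDOC, PGK1, ENO1 and PFKP are the members whose arms separated with no overlap late in the course, in both arms lacking BMP4 or the WNT activator. Each run covers 250 bases before to 50 bases after the start of the RefSeq transcript on GRCh38.p14, written 5′ to 3′ on the gene's strand. Capitals mark ACGTG and GCGTG on either strand, so CACGT and CACGC are their reverse forms, and each CACGTG holds ACGTG on both strands. The LDHA window is chr11:18394313-18394612 (plus strand), that of ALDOC chr17:28576846-28577145 (minus strand), that of PGK1 chrX:78103998-78104297 (plus strand), that of ENO1 chr1:8878637-8878936 (minus strand) and that of PFKP chr10:3067720-3068019 (plus strand).
LDHA: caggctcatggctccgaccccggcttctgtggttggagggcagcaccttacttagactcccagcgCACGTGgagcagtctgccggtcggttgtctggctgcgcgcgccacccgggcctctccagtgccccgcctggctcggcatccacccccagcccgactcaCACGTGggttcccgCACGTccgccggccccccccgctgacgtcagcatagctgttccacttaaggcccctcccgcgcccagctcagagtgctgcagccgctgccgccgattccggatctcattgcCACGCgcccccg
ALDOC: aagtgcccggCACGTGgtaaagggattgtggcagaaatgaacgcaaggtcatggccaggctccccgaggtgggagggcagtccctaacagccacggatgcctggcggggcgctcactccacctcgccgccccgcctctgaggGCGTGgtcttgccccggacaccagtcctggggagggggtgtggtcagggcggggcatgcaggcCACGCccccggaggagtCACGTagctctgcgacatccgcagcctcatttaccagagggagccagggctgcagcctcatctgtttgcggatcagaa
PGK1: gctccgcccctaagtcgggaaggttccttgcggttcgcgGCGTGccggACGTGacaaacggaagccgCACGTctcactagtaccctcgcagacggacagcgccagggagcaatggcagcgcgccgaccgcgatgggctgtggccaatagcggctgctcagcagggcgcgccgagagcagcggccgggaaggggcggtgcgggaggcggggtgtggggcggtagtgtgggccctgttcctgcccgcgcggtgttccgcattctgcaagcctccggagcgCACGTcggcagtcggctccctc
ENO1: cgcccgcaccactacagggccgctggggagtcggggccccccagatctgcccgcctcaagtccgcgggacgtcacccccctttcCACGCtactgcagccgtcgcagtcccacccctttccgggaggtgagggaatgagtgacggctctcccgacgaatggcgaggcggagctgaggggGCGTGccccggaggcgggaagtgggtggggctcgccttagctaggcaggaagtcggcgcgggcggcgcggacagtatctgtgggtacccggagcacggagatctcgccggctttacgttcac
PFKP: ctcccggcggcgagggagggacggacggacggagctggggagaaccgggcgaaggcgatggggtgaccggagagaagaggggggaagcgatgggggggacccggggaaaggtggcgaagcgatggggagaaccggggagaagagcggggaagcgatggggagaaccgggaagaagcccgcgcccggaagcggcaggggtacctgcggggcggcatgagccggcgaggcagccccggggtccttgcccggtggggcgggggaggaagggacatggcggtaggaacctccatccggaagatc
The LDHA window held 6 matches on its strands, of which 4 came from its 2 copies of CACGTG. ALDOC had 5 matches with 1 copy of CACGTG, PGK1 had 4, ENO1 had 2, both of the GCGTG form, and PFKP had 0. Of the 10 members, 9 had a promoter entry in the RefSeq table used here, and SLC2A3 had no entry. ACGTG was found in 5 of the 9 and in 21.6% of 27305 promoters of the same length, GCGTG in 7 of the 9 and in 36.3%, and either form in 8 of the 9 and in 48.4%. CACGTG was found in 2 of the 9 and in 7.43% of all. These matches describe letters in a window, and the arrays measured no binding.

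Levels are given as log2 of the background-corrected, quantile-normalised bead signal, so a difference of 1 is a 2-fold difference. Each gene was read through its brightest probe, and levels were not compared between genes because probes differ in brightness. Per array between 16218 and 18796 probes were detected (detection p under 0.01), and every member's probe was detected on all 29 arrays. The highest normalised value of any probe was 14.17, which lies close above SLC2A3, ENO1 and LDHA at their highest. Differences among their high values may therefore be compressed, which was not tested. On day 0 all 6 pluripotency markers were detected. On days 4 to 8 the summed log2 signal of 6 cardiomyocyte markers ran from 46.6 to 68.9 in FBW, 36.3 to 64.1 in BW, 31.6 to 40.3 in FB and 30.9 to 35.3 in FW. Over the same days the sum of 6 pluripotency markers ran from 36.1 to 43.6 in FBW, 44.4 to 54.3 in BW, 48.5 to 60.9 in FB and 48.6 to 63.1 in FW, and that of 6 surface ectoderm markers from 32.9 to 35.1 in FBW and from 48.1 to 56.6 over the other arms. The sum of 4 endothelial markers was higher in FBW and BW than in FB and FW, with 21.5 to 31.7 in FBW, 20.8 to 29.3 in BW, 18.5 to 19.8 in FB and 17.9 to 19.4 in FW. Between 2 and 4 of the 4 were detected per array in FBW and BW, and at most 1 in FB and FW. None of 3 neural markers was detected on any array. The part of this cell mixture in the levels below was not tested.

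Late in the course, the 10 genes were lower without BMP4 or without the WNT activator than after full induction, and without FGF2 none passed the test in either direction. On days 4 to 8 all 10 members were lower in FB than in FBW (limma, Benjamini-Hochberg adjusted p under 0.05), where 26.1% of 12060 genes tested were lower. All 10 were also lower in FW, where the share of all genes was 28%. The median difference of the members was -1.33 in FB and -1.47 in FW, beside 0.02 and 0.03 over all genes tested. The 3 comparisons share the FBW arrays, so they are not independent of each other. In these whole-culture RNA samples, fewer cells that express a gene and less RNA per cell cannot be told apart. With 1 array per arm and day, days stood in for repeats. A p-value sets a difference against how much all 4 arms varied relative to each other from day to day, pooled into 1 spread. Such a p-value is too small insofar as neighbouring days resemble each other. Nothing in the labels said that the arrays of an arm came from separate cultures.

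**Figure D1:**
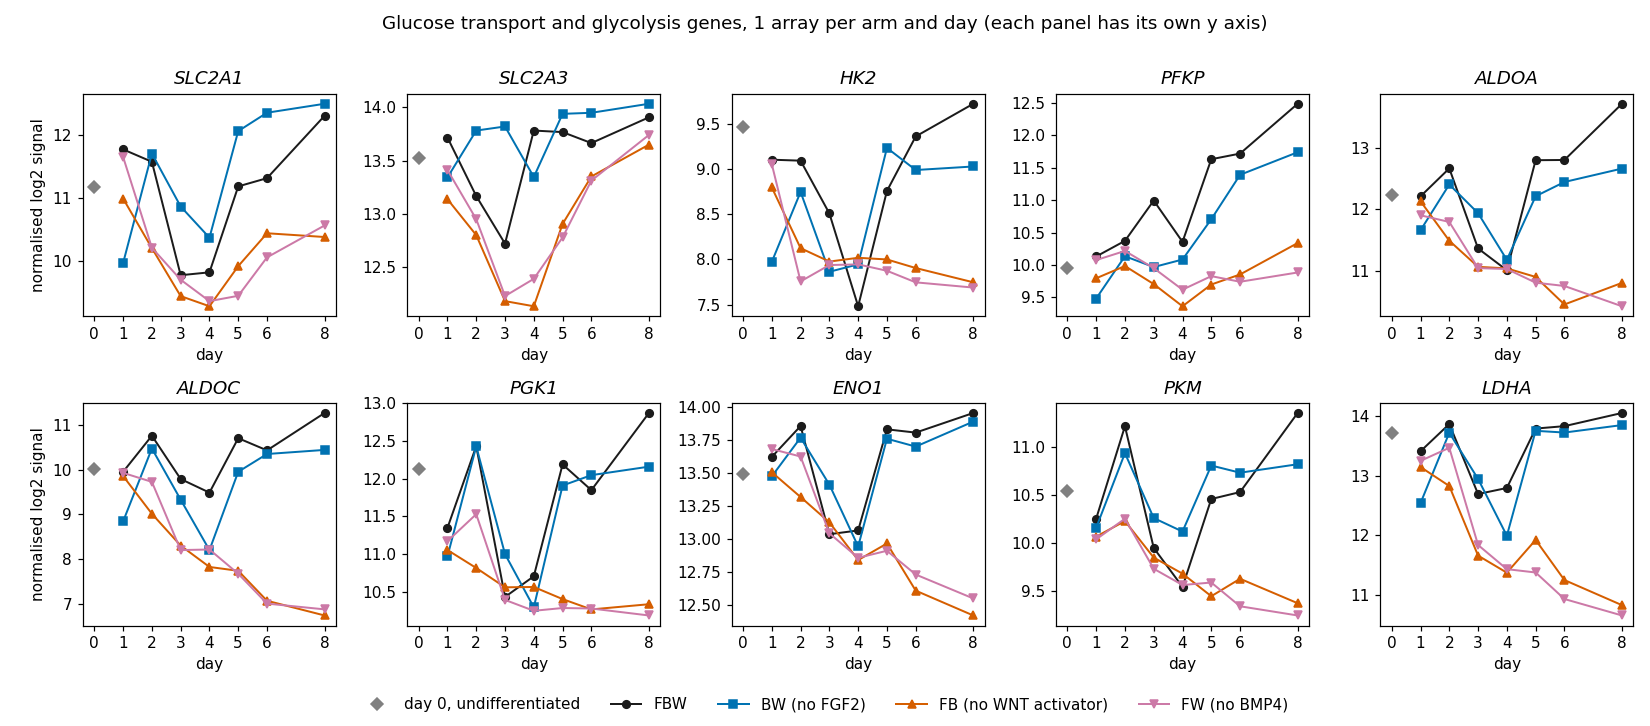
Normalised log2 signal of each of the 10 genes by day, with 1 array per point, for day 0 (diamond) and the arms FBW, BW, FB and FW (lines). From day 5 the FBW and BW lines lie above the FB and FW lines in all 10 panels, closest for SLC2A3 on day 8 at 13.65 to 14.03.

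SLC2A1 encodes GLUT1, the carrier for basal glucose uptake in many cell types. Its signal was 11.16 on day 0. On days 4, 5, 6 and 8 it was 9.82, 11.18, 11.31 and 12.30 in FBW, and in BW it was 10.37, 12.06, 12.35 and 12.49. Over the same days FB gave 9.29, 9.92, 10.44 and 10.38 and FW 9.37, 9.45, 10.06 and 10.56. BW was the highest arm on each of these 4 days, and FB and FW lay below FBW on each, although their ranges overlapped that of FBW through its low day 4. The difference from FBW was -1.15 ± 0.23 (SE; adjusted p = 0.00141) in FB and -1.29 ± 0.23 (SE; adjusted p = 0.00055) in FW. In BW it was 0.66 ± 0.23 (SE; adjusted p = 0.0544), which did not pass the threshold. Without day 4 the BW difference was 0.70 with an adjusted p of 0.021, without day 8 it was 0.82 with 0.0442, and fitted on FBW and BW alone its adjusted p was 0.0221. The FB call was lost without day as a block (adjusted p = 0.0813).

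SLC2A3 encodes GLUT3, a carrier with high affinity for glucose that is best known from neurons. From 13.52 on day 0 it reached 13.78, 13.77, 13.66 and 13.90 in FBW on days 4, 5, 6 and 8. FB gave 12.14, 12.91, 13.35 and 13.65, FW gave 12.39, 12.78, 13.31 and 13.74 and BW gave 13.35, 13.94, 13.95 and 14.03 on those days. SLC2A3 was higher on each later day than on the one before in FB and FW from day 4 on, and by day 8 all arms lay between 13.65 and 14.03. The difference from FBW over days 4 to 8 was -0.77 ± 0.19 (SE; adjusted p = 0.0052) in FB and -0.72 ± 0.19 (SE; adjusted p = 0.00675) in FW. Both calls were lost without day as a block (adjusted p = 0.0507 and 0.0595), FB's was lost when only FB and FBW entered (0.0524) and FW's without day 5 (0.0605). SLC2A3 was the only member called in the comparison of day 8 with day 1 over all arms, at 0.43 ± 0.11 (SE; adjusted p = 0.0298), where 34.8% of 11260 genes were called, and it was lost without FB, without BW or without FW (adjusted p from 0.072 to 0.11). Its probe may also read SLC2A14, a near-identical copy.

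HK2 encodes hexokinase, which phosphorylates glucose on entry. It stood at 9.47 on day 0. On days 4, 5, 6 and 8 its signal was 7.48, 8.76, 9.37 and 9.73 in FBW and 7.95, 9.24, 8.99 and 9.03 in BW. FB stayed between 7.75 and 8.02 and FW between 7.69 and 7.95 over these days. FBW was the lowest arm on day 4 and lay above FB and FW from day 5 on, so that the ranges overlapped. The difference was -0.92 ± 0.34 (SE; adjusted p = 0.0368) in FB and -1.02 ± 0.34 (SE; adjusted p = 0.0214) in FW. HK2 passed under 6 of 12 alternative settings in FB and 7 of 12 in FW, fewer than any other member. Without day 5, 6 or 8 its adjusted p ran from 0.108 to 0.22 in FB and from 0.0772 to 0.147 in FW, without the FBW array shared with another series it was 0.117 and 0.0744, and with only the arm and FBW in the fit 0.125 and 0.0964. Without day as a block the FB call was also lost (0.0581).

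PFKP encodes the platelet type of phosphofructokinase, the enzyme of the committing step. Starting from 9.96 on day 0, FBW gave 10.13, 10.37, 10.99, 10.36, 11.63, 11.72 and 12.49 on days 1, 2, 3, 4, 5, 6 and 8. BW gave 9.48, 10.14, 9.97, 10.08, 10.71, 11.39 and 11.74 on the same days. FB lay between 9.36 and 10.34 throughout and FW between 9.62 and 10.22. PFKP was the member that stood furthest above day 0 on day 8 in FBW and BW, and BW lay below FBW on every day. On days 4 to 8 all FB and all FW arrays were below all FBW arrays. The difference there was -1.73 ± 0.23 (SE; adjusted p = 6.92e-05) in FB, or 3.33-fold lower, and -1.78 ± 0.23 (SE; adjusted p = 4.76e-05) in FW, or 3.43-fold lower. In BW it was -0.57 ± 0.23 (SE; adjusted p = 0.0867). Without day 4 the BW difference passed the threshold (-0.67, adjusted p = 0.021), as it did when only BW and FBW entered the fit (0.0258).

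The aldolases split fructose bisphosphate. ALDOA is the form of muscle and most other tissues, and ALDOC that of brain. ALDOA stood at 12.23 on day 0. In FBW it gave 11.01, 12.79, 12.80 and 13.71 on days 4, 5, 6 and 8, against 11.04, 10.90, 10.45 and 10.80 in FB and 11.03, 10.80, 10.75 and 10.42 in FW. These 3 arms were level on day 4 and then parted, FBW upward, FB and FW downward. BW ran between them and FBW from day 5, at 11.18, 12.21, 12.44 and 12.66. The difference over the window was -1.78 ± 0.41 (SE; adjusted p = 0.00299) in FB and -1.83 ± 0.41 (SE; adjusted p = 0.00228) in FW.

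ALDOC was the member with the largest late differences in FB and FW. Its signal on day 0 was 10.02. On days 1, 2, 3, 4, 5, 6 and 8 FB gave 9.86, 9.01, 8.30, 7.83, 7.74, 7.07 and 6.75, and FW gave 9.93, 9.72, 8.20, 8.22, 7.68, 7.01 and 6.88. FBW gave 9.95, 10.75, 9.79, 9.48, 10.70, 10.43 and 11.26 on those days. FB went down at every step and FW ended near it, whereas FBW ended above day 0. BW dipped to 8.20 on day 4, into the range of FB and FW, and was back at 10.44 by day 8. The late difference was -3.12 ± 0.50 (SE; adjusted p = 0.0003) in FB, 8.7-fold lower, and -3.02 ± 0.50 (SE; adjusted p = 0.000322) in FW, 8.12-fold lower, with no overlap with FBW in either arm. In BW the difference was -0.73 ± 0.50 (SE; adjusted p = 0.305), and it passed only when BW and FBW alone entered the fit (adjusted p = 0.0329).

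PGK1 encodes phosphoglycerate kinase, which makes ATP from a phosphorylated intermediate. From 12.12 on day 0, FBW reached 10.70, 12.19, 11.85 and 12.87 on days 4, 5, 6 and 8 and BW 10.29, 11.91, 12.05 and 12.16. FB held between 10.26 and 10.56 and FW between 10.18 and 10.28 over those days. FB and FW kept within a narrow range below all FBW arrays, and BW joined them on day 4 only. The difference from FBW was -1.51 ± 0.34 (SE; adjusted p = 0.00294) in FB and -1.66 ± 0.34 (SE; adjusted p = 0.00147) in FW.

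ENO1 encodes the common form of enolase, which makes phosphoenolpyruvate. It gave 13.50 on day 0 and 13.07, 13.83, 13.81 and 13.96 in FBW on days 4, 5, 6 and 8. FB gave 12.84, 12.97, 12.61 and 12.42 and FW 12.86, 12.91, 12.73 and 12.55 on those days. FB and FW lay below every FBW array, and BW, between 12.95 and 13.89, kept close to FBW. The difference was -0.96 ± 0.20 (SE; adjusted p = 0.00147) in FB and -0.90 ± 0.20 (SE; adjusted p = 0.0019) in FW, on a probe near the top of the measured range.

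PKM encodes pyruvate kinase, the last step before pyruvate. Its signal was 10.54 on day 0. FBW gave 9.55, 10.46, 10.53 and 11.35 on days 4, 5, 6 and 8 and BW 10.12, 10.81, 10.73 and 10.82. FB lay between 9.38 and 9.68 and FW between 9.25 and 9.59. BW was above FBW on 3 of the 4 days and FBW overlapped FB and FW on day 4. The difference was -0.94 ± 0.26 (SE; adjusted p = 0.0101) in FB and -1.04 ± 0.26 (SE; adjusted p = 0.00525) in FW. The FB call was lost without day 5, 6 or 8 (adjusted p from 0.052 to 0.0641), and both calls were lost with only the arm and FBW in the fit (0.0674 and 0.0514). The 3 PKM probes, annotated to different transcripts of the gene, moved together, with differences of -0.94, -0.93 and -0.81 in FB and -1.04, -1.07 and -0.78 in FW.

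LDHA encodes the subunit of lactate dehydrogenase that favours the making of lactate. On day 0 it stood at 13.71. FBW gave 13.41, 13.86, 12.69, 12.79, 13.79, 13.83 and 14.05 on days 1, 2, 3, 4, 5, 6 and 8, and BW gave 12.54, 13.72, 12.94, 11.99, 13.75, 13.72 and 13.85. FB gave 13.14, 12.82, 11.66, 11.37, 11.92, 11.25 and 10.83 and FW gave 13.25, 13.47, 11.83, 11.43, 11.37, 10.93 and 10.65 on those days. LDHA was the only member for which all 8 late arrays of FBW and BW lay above all 8 of FB and FW, a pattern that 5.1% of all genes tested had. The late difference from FBW was -2.27 ± 0.35 (SE; adjusted p = 0.000219) in FB, 4.84-fold lower, and -2.52 ± 0.35 (SE; adjusted p = 8.89e-05) in FW, 5.73-fold lower. A second LDHA probe gave -2.29 and -2.49, and a dim probe, detected on 17 of 29 arrays, gave -1.99 in FB.

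**Figure D2:**
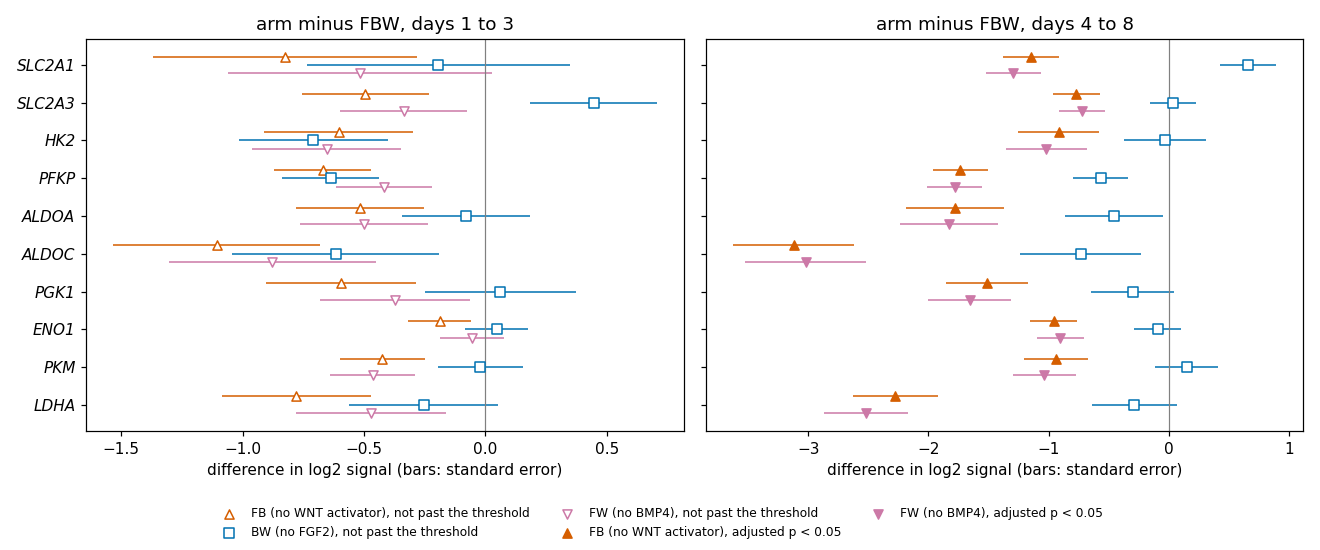
Difference in log2 signal between each arm and FBW for the 10 genes on days 1 to 3 (left) and days 4 to 8 (right), with bars of 1 standard error and filled symbols where the adjusted p is under 0.05. All points of FB and FW are filled on the right, running from -0.72 to -3.12, and none is filled on the left or in BW.

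On each of days 5, 6 and 8 all 10 members were higher in both FBW and BW than in both FB and FW, where 15.8% of genes tested were, a pattern read after the courses had been seen. In all, 6 of the 10 members had every late FB array below every FBW array, where 18.7% of genes tested did, and 5 had this in FW, where 20% did. The members that overlapped did so through day 4, when FBW itself was low, apart from SLC2A3 in FW, which overlapped through its day 8. On days 4 to 8 in BW, 0 of the 10 members passed the test, where 25.7% of genes did. Over all genes 4683 had an unadjusted p under 0.05 in that comparison. The median BW difference of the members was -0.19, and their differences ran from -0.73 in ALDOC to 0.66 in SLC2A1. A difference that missed the threshold does not show that the arms were alike.

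Early differences from FBW did not pass the test. On days 1 to 3, 0 of the 10 members were called in FB, BW or FW, where 0.243%, 0.00869% and 0.912% of 11514 genes were. Unadjusted p-values under 0.05 were counted for 3247, 1423 and 3401 genes. All 10 members nevertheless had a mean below FBW in FB and in FW, with medians of -0.60 and -0.47, and the BW median was -0.14. In BW the early difference was the larger one for HK2 (-0.71 against -0.03 on days 4 to 8), SLC2A3 (0.45 against 0.04) and PFKP (-0.64 against -0.57). ALDOC had the largest early difference in both, -1.11 ± 0.43 (SE; adjusted p = 0.136) in FB and -0.88 ± 0.43 (SE; adjusted p = 0.2) in FW. PFKP in FB, at -0.67 ± 0.20 (SE; adjusted p = 0.0851), had all 3 FB arrays below those of FBW. No other member had this early pattern in FB or FW, and its share over all genes was not computed. Leaving out day 1 brought 4 members past the threshold in FB (PFKP, ALDOA, ALDOC and LDHA, adjusted p from 0.00366 to 0.0451) and 3 in FW (HK2, ALDOC and LDHA, 0.00598 to 0.0486). Array weights brought 7 and 2. Over the 4 fits with a day or the shared FBW array left out, 0 to 2757 of all genes were called in FB and in FW. The share of all genes called without day 1 or with array weights is not given here. The 0.243% and 0.912% above are therefore no background for these counts.

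Whether the difference from FBW grew from the early to the late days was tested as an interaction. In FB, PFKP passed with a late-minus-early change of -1.06 ± 0.33 (SE; adjusted p = 0.046), 1 of 10 members, where 11.4% of 12662 genes did. In FW, PFKP (-1.36 ± 0.33, adjusted p = 0.0131), ENO1 (-0.85 ± 0.27, 0.0418) and LDHA (-2.05 ± 0.52, 0.0157) passed, 3 of 10, beside 13.9% of genes. These shares of members are close to those of all genes for FB and above them for FW. For ALDOC the change was as large as -2.01 ± 0.74 (SE; adjusted p = 0.0855) in FB and -2.14 ± 0.74 (SE; adjusted p = 0.0603) in FW without passing. In BW 0 of 10 members and 0.869% of genes were called, and 1930 genes had an unadjusted p below 0.05. With day 4 left out, the count of members was 7 in both FB and FW. Without day 1, 2, 5, 6 or 8 it was 0 in FB, and without day 2 or 6 it was 0 in FW. Over the 8 fits with a day or the shared FBW arrays left out, 362 to 2309 of all genes were called in FB and 413 to 2524 in FW. The share of all genes without day 4 alone is not given here.

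Most members were lower on day 4 than on day 2 in every arm. From day 2 to day 4, 9 members went down in FBW, 10 in FB, 10 in BW and 9 in FW, where 51.5%, 53.6%, 48.9% and 52.5% of genes detected in the arm went down. For 8 of the 10 the signal was lower by any amount on day 4 than on day 2 in all 4 arms, as it was for 15.8% of 12633 genes. The exceptions were SLC2A3, which went up in FBW, and HK2, which went up in FW. Of the 8, PFKP changed by only -0.02 in FBW and -0.05 in BW. LDHA changed by -1.07 in FBW, -1.73 in BW, -1.45 in FB and -2.04 in FW. The IWP-2 treatment of days 2 and 3 fell in this interval in every arm, so its part cannot be told apart from that of time. These steps were read after the courses had been seen and were not tested.

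From day 4 to day 8 the course differed between arms for most members, a step read after the courses had been seen and not tested. For SLC2A3 the arms drew together, its difference from FBW going from -1.65 to -0.26 in FB and from -1.39 to -0.17 in FW. ALDOC and LDHA already differed from FBW on day 4, by -1.66 and -1.42 in FB. All 10 members went up in FBW, by a median of 1.97, and all 10 in BW, by 1.57, where 47.5% and 48.1% of genes detected did. In FB and FW only SLC2A1, SLC2A3 and PFKP went up and the other 7 went down, with medians of -0.25 and -0.28, where 53.5% and 53.1% of genes went down. ALDOA gained 2.71 in FBW and 1.48 in BW, and it changed by -0.24 in FB and -0.61 in FW. HK2 gained 2.25 in FBW and 1.09 in BW. Between days 4 and 5 alone 9 members went up in FBW, by a median of 1.24, and 10 in BW, by 1.16, beside 5 in FB and 6 in FW. Between these days the shares of genes that went up were 46.5%, 45.9%, 51% and 50.1%.

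**Figure D3:**
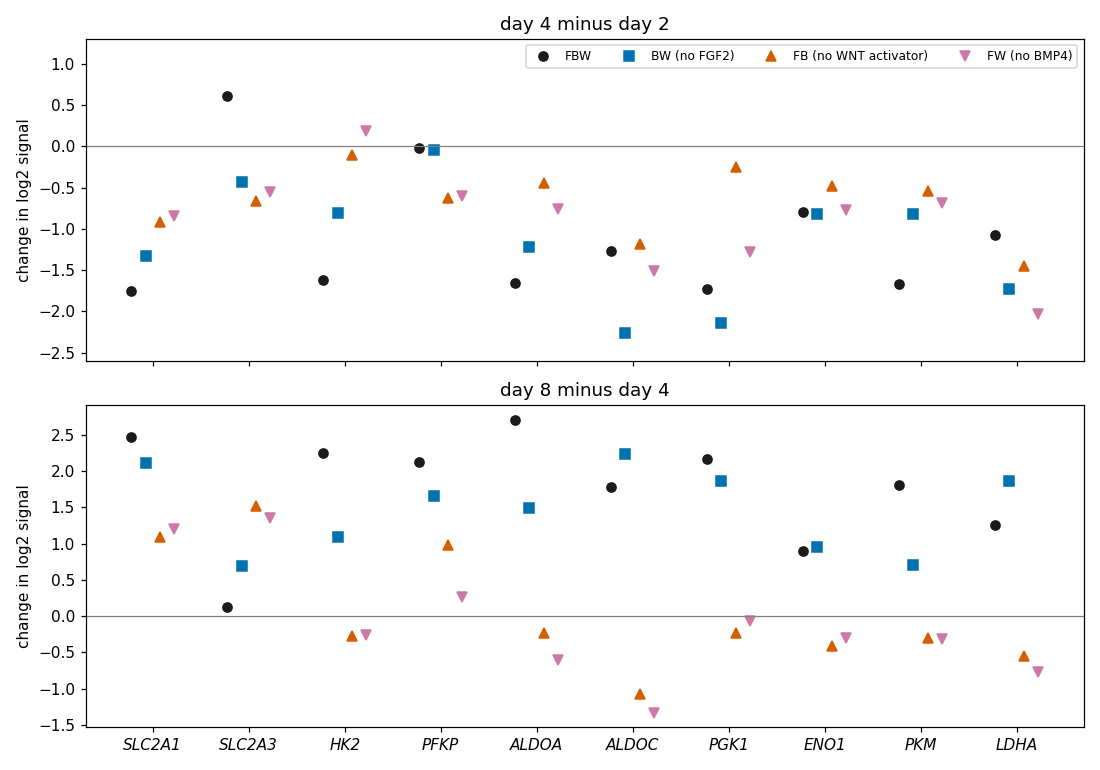
Change in log2 signal of the 10 genes from day 2 to day 4 (top) and from day 4 to day 8 (bottom) in each arm, 1 array per arm and day. In the lower panel all FBW and BW points lie above 0, and FB and FW points lie above 0 only for SLC2A1, SLC2A3 and PFKP.

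Against undifferentiated cells, day 8 ended with all members above day 0 in FBW, by 0.26 to 2.53, and most below it in FB and FW. In BW they ran from -0.44 in HK2 through 0.04 in PGK1 and 0.14 in LDHA to 1.78 in PFKP. With 1 array on each side these are values without a test. SLC2A1, PFKP, ALDOA and ALDOC were at least 2-fold higher in FBW on day 8 than on day 0, 4 of 10 members, where 14.4% of genes were. BW had 2, SLC2A1 and PFKP, beside 10.6% of genes. PFKP stood 5.76-fold above day 0 in FBW and 3.43-fold in BW. In FB 7 members were at least 2-fold lower, all but the carriers and PFKP, beside 8.96% of genes, and in FW 6 were, beside 8.89%. ENO1 just missed this size in FW, at -0.95. LDHA was 7.38-fold lower than day 0 in FB and 8.32-fold lower in FW, and ALDOC 9.68-fold and 8.81-fold lower.

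The other genes of the route were read in the same fits. On days 4 to 8, 10 of 11 other glycolysis enzymes tested were lower in FB, and 10 were lower in FW, with list medians of -1.21 and -1.28. The shares of all genes that were lower were 26.1% in FB and 28% in FW. ENO3, the muscle enolase, differed most, by -4.53 ± 0.48 (SE; adjusted p = 1.29e-05) in FB and -4.91 ± 0.48 (SE; adjusted p = 5.92e-06) in FW, and GPI, which converts glucose phosphate to fructose phosphate, by -1.75 ± 0.53 (SE; adjusted p = 0.0144) and -1.64 ± 0.53 (SE; adjusted p = 0.0186). In BW 3 of the 11 were lower, where 12.5% of genes were, among them ENO3 at -1.96 ± 0.48 (SE; adjusted p = 0.0111) and PFKM, the muscle phosphofructokinase, at -0.91 ± 0.18 (SE; adjusted p = 0.00308).

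Among the regulators of the pathway's flow, 3 of 5 were lower and 1 higher in both arms. Of all genes 26.1% were lower and 27.9% higher in FB, and 28% and 29.9% in FW. TXNIP, an inhibitor of glucose uptake whose transcription follows glucose supply, differed by -3.40 ± 0.40 (SE; adjusted p = 2.72e-05) in FB and -3.98 ± 0.40 (SE; adjusted p = 7.24e-06) in FW. PFKFB4, which makes an activator of phosphofructokinase, differed by -3.14 ± 0.46 (SE; adjusted p = 0.000148) and -3.03 ± 0.46 (SE; adjusted p = 0.000162). TIGAR, which breaks that activator down, was higher by 1.07 ± 0.18 (SE; adjusted p = 0.000427) and 0.77 ± 0.18 (SE; adjusted p = 0.00346). TXNIP, though an inhibitor of uptake, was lower together with the carriers.

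Of 10 genes tested for lactate and pyruvate exit, 7 were lower in FB and 8 in FW, where 26.1% and 28% of all genes were. PDK1, a kinase that shuts pyruvate out of the mitochondrial dehydrogenase, was detected on 3 of 4 late FBW arrays and on no late FB or FW array. Set against the detection floor, it was at least 1.77-fold lower in FB and at least 1.82-fold lower in FW. Its probe entered the test only through FBW and BW arrays. The limma fit, which used the undetected values, gave adjusted p = 0.00149 in FB and 0.00174 in FW and did not test these bounds. DLAT, a subunit of that dehydrogenase, was lower too, by -1.22 ± 0.33 (SE; adjusted p = 0.0086) and -1.30 ± 0.33 (SE; adjusted p = 0.00541). PDHB, another subunit, named after its values were seen, did not pass, at -0.25 ± 0.13 and -0.29 ± 0.13 (adjusted p = 0.112 and 0.065). In BW the mitochondrial pyruvate carriers MPC1 (-0.75 ± 0.17, adjusted p = 0.00841) and MPC2 (-0.39 ± 0.13, 0.0415) were the 2 of 10 called. This count lies near the background, as 25.7% of all genes tested were called in BW.

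Of 6 genes tested in the pentose phosphate branch, which draws sugar phosphate off glycolysis, 4 were higher in FB and 3 in FW, where 27.9% and 29.9% of all genes were. The others did not pass the test, among them PGLS, named after its values were seen, at -0.10 ± 0.10 in FB and -0.13 ± 0.10 in FW (adjusted p = 0.382 and 0.26). TALDO1, transaldolase, was higher by 0.63 ± 0.08 (SE; adjusted p = 6.59e-05) in FB and 0.65 ± 0.08 (SE; adjusted p = 4.3e-05) in FW, and in BW by 0.42 ± 0.08 (SE; adjusted p = 0.00347). RPE was higher by 0.61 ± 0.11 (SE; adjusted p = 0.000623) in FB. Of 5 other glucose transporters, SLC2A6 was higher by 1.16 ± 0.23 (SE; adjusted p = 0.00135) and 1.19 ± 0.23 (SE; adjusted p = 0.000984), and SLC2A10 lower by -0.72 ± 0.11 (SE; adjusted p = 0.000183) and -0.55 ± 0.11 (SE; adjusted p = 0.00105). In all 2 were higher and 2 lower in FB, and 3 higher and 2 lower in FW. The other lower gene in both arms was SLC2A14, the near-identical copy of SLC2A3. Its mean signal on days 4 to 8 was 7.21 in FB and 6.90 in FW, against 8.11 in FBW. Of all genes 27.9% were higher and 26.1% lower in FB, and 29.9% and 28% in FW.

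Of 19 genes of the regulators and the hypoxia response, 11 were lower and 4 higher in FB, and the same counts were found in FW. Of all genes 26.1% were lower and 27.9% higher in FB, and 28% and 29.9% in FW, so the count of higher genes lies below the background. In BW 1 of the 19 was lower and 4 were higher, where 12.5% and 13.2% of genes were. BNIP3, a mitochondrial target of the hypoxia-inducible factors, differed by -3.11 ± 0.38 (SE; adjusted p = 3.58e-05) in FB and -3.43 ± 0.38 (SE; adjusted p = 1.44e-05) in FW, and P4HA1, a collagen prolyl hydroxylase, by -2.96 ± 0.35 (SE; adjusted p = 2.87e-05) and -3.18 ± 0.35 (SE; adjusted p = 1.4e-05). EPAS1, which encodes a hypoxia-inducible factor, was higher by 3.19 ± 0.94 (SE; adjusted p = 0.0124) and 2.65 ± 0.94 (SE; adjusted p = 0.0287), and in BW by 3.50 ± 0.94 (SE; adjusted p = 0.0174). MYC was higher by 1.79 ± 0.24 (SE; adjusted p = 7.5e-05) and 2.01 ± 0.24 (SE; adjusted p = 2.64e-05), and also in BW, by 1.17 ± 0.24 (SE; adjusted p = 0.00438). A link between MYC and the members was not tested. HIF1A, singled out after its values were seen, differed by 0.02 ± 0.13 in FB and 0.14 ± 0.13 in FW (adjusted p = 0.907 and 0.378). Protein levels and oxygen were not measured.

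**Figure D4:**
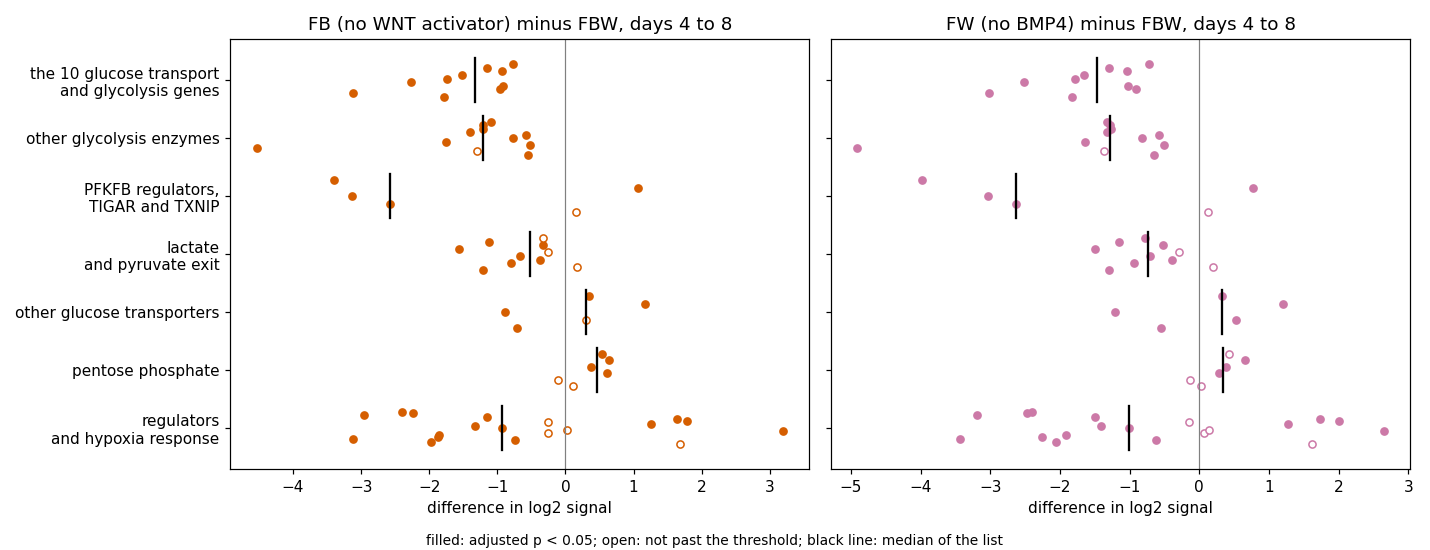
Difference in log2 signal from FBW on days 4 to 8 for the 10 genes and the tested genes of 6 related lists in FB (left) and FW (right), 1 point per gene, filled where the adjusted p is under 0.05, with the list median as a black line. The medians of the 10 genes (-1.33 and -1.47) and of the other glycolysis enzymes (-1.21 and -1.28) lie below 0 and those of the pentose phosphate genes (0.46 and 0.33) above it.

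The members also varied together. Over the 29 arrays the 45 pairs of members had a Pearson r between 0.43 and 0.98 with a median of 0.79, and 21 pairs were above 0.8. These points share cells, arms and normalisation, so r is a description. ALDOC and LDHA were the closest pair, and the lowest values were pairs with SLC2A3. Among 10554 genes detected on at least 15 arrays, LDHA's course was most like that of BNIP3 (r = 0.95), CIART (0.94) and PGAM4 (0.93), a near-identical copy of the glycolysis enzyme PGAM1. ENO1 was most like PGAM4 (0.93) and GAPDH (0.92), glycolysis enzymes of the same list or their copies. PGK1 and SLC2A1 were each most like FAM162A (0.94 and 0.88), ALDOA like FGF11 (0.95), PKM like HDHD5 (0.93) and ALDOC like CIART (0.95). PFKP was most like GNG11 (0.96) and SEPTIN5 (0.95), HK2 like ANKZF1 (0.90), and SLC2A3 like its copy SLC2A14 (0.91).

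Where a member had other detected probes, these correlated with the one used. The second HK2 probe correlated with it at r = 0.92 over the 29 arrays, that of ALDOA at 0.99, that of PGK1 at 0.93, those of PKM at 0.98 and 0.96 and those of LDHA at 0.995 and 0.94. The HK2 probes differed in size, with -0.92 and -0.72 in FB and -1.02 and -0.48 in FW, and so did those of PGK1, with -1.51 and -1.16 in FB and -1.66 and -1.06 in FW. A PFKP probe and an ALDOA probe were detected on 0 arrays and another ALDOA probe on 3, so these gave no further reading.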

How the data were processed

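The deposited raw table holds linear bead intensity per probe before background correction, each with a detection p-value, from GenomeStudio per the submitters' processing notes. Detection p-values in the deposited table move in steps of 1 in 770. The authors' processed intensity table, with values down to -13.0 and a median of 6.88 in every column, served as an alternative. No source used here names its method. Background correction, quantile normalisation and log2 were done with neqc at an offset of 16, in limma 3.58.1 under R 4.3.3. Symbols came from the platform annotation, which names 1 gene for 30113 probes, several for 8 and none for 17202. A gene was read through its probe with the highest mean and tested where that probe was detected (p under 0.01) on at least 3 arrays of the fit. For arm differences, limma's lmFit and trended eBayes took day as a block in windows of 3 and 4 days over all 4 arms (6 and 9 residual degrees of freedom), and all p-values were adjusted over all genes tested (Benjamini-Hochberg, threshold 0.05). The contrast of day 8 with day 1 took arm as its block. The fits were tested on simulated data with independent noise on each array. Such data cannot show how far likeness between neighbouring days affects the p-values. Raw medians lay between 94.8 and 110.05 per array, and the number of arrays limits the precision. Neither labels nor headers name a chip or run. The members, lists and tests were chosen with earlier results of these data known. All members are named, with up to 2 called genes in each direction of each related list and, for each member, the genes most like it among 3 ranked by Pearson r. Alternatives were quantile normalisation without background correction, the authors' values, the mean of a gene's detected probes, no detection filter, array weights, no block, only the arms compared, each day or arm left out, and, added after the data were seen, leaving out the FBW arrays shared with another series. Promoter sequences are RefSeq's on GRCh38.p14.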

Additional observations from a re-analysis of the deposited data

Results flagged for a closer look

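Over 40 sets of an arm's 7 days for a member, 2 had an array far from the others, and chance flags about 1 in 20 such groups, or 2 of 40. Both were HK2 on day 1, with 8.80 in FB and 9.06 in FW, above the other days of these arms. Days are a time course and not repeats, and day 0 stood at 9.47. The difference from FBW differed between the early and the late days for 4 values, by a test of the interaction (limma, adjusted over all genes). PFKP had -1.06 in FB (adjusted p = 0.046) and -1.36 in FW (adjusted p = 0.0131). In FW ENO1 had -0.85 (adjusted p = 0.0418) and LDHA had -2.05 (adjusted p = 0.0157). On each of days 5, 6 and 8 all of PFKP, ENO1 and LDHA were lower than FBW in both arms.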

How the results depend on the processing

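Of 90 counts of members recomputed under alternatives other than leaving out arrays, 76 stayed within 1.5 times the value given. With array weights the members called on days 1 to 3 were 7 in FB and 2 in FW, those on days 4 to 8 in BW were 1, and the late-minus-early count in FB was 3. With only BW and FBW in the fit, 3 members were called on days 4 to 8. Shares of all genes under these settings are not given here. The late-minus-early count was 0 in FB with quantile normalisation without background correction, with no detection filter and with no day as a block, and 0 in FW with no day as a block. With no detection filter 0 members were called between day 8 and day 1, where more genes were tested. At 4-fold in place of 2-fold, day 8 differed from day 0 for 1 member in FBW, 2 in FB, 0 in BW and 2 in FW. Leaving out days, arms or the FBW arrays shared with another series gave 0 to 4 members in FB, 0 in BW and 0 to 3 in FW on days 1 to 3, and 8 to 10 in FB, 0 to 2 in BW and 8 to 10 in FW on days 4 to 8. Late minus early it gave 0 to 7 in FB, 0 in BW and 0 to 7 in FW, and 0 to 1 between day 8 and day 1. Of all genes the same fits called 0 to 2757 in FB, 0 to 350 in BW and 0 to 2757 in FW on days 1 to 3. On days 4 to 8 they called 4781 to 6061, 1166 to 2801 and 5247 to 6504. Late minus early they called 362 to 2309, 0 to 425 and 413 to 2524, and between day 8 and day 1 they called 1803 to 3060. The sign turned for 3 single values, none of them called. Leaving out arrays, ENO1 in FW on days 1 to 3 ran from -0.17 to 0.0333, and, late minus early in FB, SLC2A3 ran from -0.45 to 0.0175 and HK2 from -0.80 to 0.0435. Of the called values of single members, 256 recomputed ones stayed past the threshold and 50 did not, and of those not called 36 passed it, in each case for causes not tested. PFKP, ALDOA, ALDOC, PGK1, ENO1 and LDHA passed in all 12 settings in both FB and FW on days 4 to 8. No paired analysis was possible because the labels give no replicate numbers, and day as a block stood in its place. Signal close to the ceiling limits SLC2A3, ENO1 and LDHA, whose high values may be compressed, and with 1 array per arm and day the spread between cultures is unknown.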
